A study of Mus musculus with 12 samples.

Results

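The heat shock proteins and their cochaperones were described here as a list of 10 genes, taken by name, with earlier results of these data known. Of these, 6 were treated as stress-inducible (*Hspa1a*, *Hspa1b*, *Hsp90aa1*, *Hsph1*, *Dnajb1* and *Bag3*) and 4 as constitutive (*Hspa8*, *Hsp90ab1*, *Hspd1* and *Hspe1*). A total of 9 of the 10 genes were measured, out of 18193 genes in all. *Hsp90ab1* has no probe set under its name in the annotation used and was not analysed here, so 3 constitutive genes remain. RNA of mouse peritoneal macrophages (PMs) was read on 12 Affymetrix expression arrays, in 6 groups of 2. PMs were transfected with antagomir-21 (an antisense oligonucleotide against miR-21), with a scramble oligonucleotide or with lipofectamine, named in the labels with no oligonucleotide and read here as the transfection reagent alone, and every group also received exosomes, which came from sensory neurons overexpressing either miR-21 or a GFP reporter. No group went without the reagent and none without exosomes, so a response shared by all groups cannot be read from these arrays. By the study's methods the PMs were kept for 48 h after transfection. The methods call the replicates independently collected and give 3 per condition, whereas 2 arrays per group were used here, and no label ties an array to a culture or animal, so p-values measure the spread between these arrays.

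Heat shock proteins are chaperones that bind unfolded proteins. Under heat, oxidants or other proteotoxic stress, the transcription factor HSF1 is released from its chaperones, binds arrays of the unit nGAAn in promoters (heat shock elements) and drives the inducible members, whereas the constitutive members serve the folding of new proteins in unstressed cells. The classes are not clean: *Hsp90aa1* and *Hsph1* have a high basal level in many cells, and *Hspd1* and *Hspe1* also respond to heat. The Hsp70 proteins work in a cycle of ATP hydrolysis in which J-domain proteins such as Dnajb1 deliver clients and nucleotide exchange factors such as Hsph1 and Bag3 release them.

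The sequence shown first is that of miR-21, which antagomir-21 is directed against and which the neurons behind the miR-21 exosomes overexpress. In the RefSeq table of GRCm38.p6, the mature strand lies at chr11:86584120-86584141 on the minus strand and is shown with its seed, bases 2 to 8, in capitals.
mmu-miR-21a-5p: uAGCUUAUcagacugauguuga

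Promoter matches to the heat shock element are shown next, since that element is how HSF1 is known to reach its targets. The 250 bases before the start of each gene were searched for GAANNTTC and TTCNNGAA, which are facing pairs of the heat shock unit, each its own reverse complement and thus covering both strands, and which may overlap each other. RefSeq gave 10 windows for 7 of the 10 genes, since *Hsph1*, *Dnajb1* and *Hspd1* have 2 each. *Hsp90aa1*, *Hspa8* and *Hsp90ab1* had no window and were not searched. A match was in 6 of these 10 windows, against 12.8% of all 32851 windows (6.69% for GAANNTTC and 7.17% for TTCNNGAA). The 6 windows are not independent, since they share sites or are near copies, as given below. By gene, 5 of the 7 had a match in at least 1 window, *Hspd1* in 1 of its 2. *Dnajb1* and *Bag3* had no match, which says only that these letters are absent from their windows. The matches follow as 30 bases each, 5′ to 3′ on the strand of the gene, with the matched run in capitals.
Hspa1a, chr17:34972242-34972271, minus strand: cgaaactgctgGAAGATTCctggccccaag
Hspa1b, chr17:34959324-34959353, minus strand: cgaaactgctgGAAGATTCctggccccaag
Hsph1, chr5:149636351-149636380, minus strand: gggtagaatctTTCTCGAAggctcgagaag
Hspe1, chr1:55088053-55088082, plus strand: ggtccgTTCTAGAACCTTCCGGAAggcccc
The *Hsph1* match lay 33 or 54 bases before the start, by window. In *Hspa1a* and *Hspa1b*, the match began 104 bases before the start, and 247 of the 250 bases before the start were identical between these neighbouring copies. The *Hspe1* run joins 3 overlapping matches over 18 bases, and the same bases, read from the other strand, lie in a window of *Hspd1*, the gene next to it. Among the 7 genes with a window, an element was thus found in both classes: in 3 inducible genes and, as a shared run, in 2 constitutive genes.

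Before the members, some properties of the arrays bear on every value. The deposited unit is a log2 signal per probe set, the brightest probe set on average stands for its gene, and a difference of 1 is a 2-fold change. Signals are not comparable between probe sets, so genes are not ranked against each other by level. The spread of an array over all genes (SD) ranged from 2.04 to 2.48, and arrays of the same group correlated over all genes with a mean r of 0.59 (6 pairs), against 0.60 for arrays of different groups (60 pairs). The 9 macrophage markers, *Adgre1* and *Csf1r* among them, all lay above the median gene, as did 3 of 3 measured B cell markers, 2 of 3 dendritic cell, 2 of 4 mast cell, 1 of 2 measured neutrophil and 1 of 3 T cell markers, and none of the mesothelial or sensory neuron markers. With 2 arrays against 2, an exact two-sided permutation test cannot go below p = 0.333, so tests rest on limma, which pooled the spread over 6 groups. In bulk RNA, fewer cells of a type and less RNA per cell cannot be told apart.

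*Hspa1a* encodes the major stress-induced cytosolic Hsp70 and had the widest range of the 9 genes. After antagomir-21, its log2 signal was 4.82 and 3.18 in PMs with miR-21 exosomes and 8.61 and 8.0 in PMs with GFP exosomes. After scramble, it was 9.01 and 6.73 with miR-21 exosomes and 4.81 and 6.45 with GFP exosomes. With lipofectamine alone, it was 8.58 and 3.77 with miR-21 exosomes and 6.20 and 3.08 with GFP exosomes. The order by exosome was thus not the same in the transfections: both antagomir-21 arrays with miR-21 exosomes lay far below both with GFP exosomes, both scramble arrays with miR-21 exosomes lay above both with GFP exosomes, and the lipofectamine groups overlapped, with 1 high and 1 low array each. Group means (SD, n = 2 each) were 4.0 ± 1.16 after antagomir-21 with miR-21 exosomes and 8.31 ± 0.43 after antagomir-21 with GFP exosomes. They were 7.87 ± 1.61 after scramble with miR-21 exosomes and 5.63 ± 1.16 after scramble with GFP exosomes, and with lipofectamine 6.17 ± 3.4 with miR-21 exosomes and 4.64 ± 2.20 with GFP exosomes.

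In PMs with miR-21 exosomes, *Hspa1a* was lower after antagomir-21 than after scramble, with a log2 difference of −3.88 ± 1.65 (SE), with a 95% interval of −7.54 to −0.21. This was under 0.05 before adjustment but not after it (limma, adjusted p over all genes = 0.929). After antagomir-21, it was lower with miR-21 than with GFP exosomes, at −4.31 ± 1.65 with a 95% interval of −7.98 to −0.65, again under 0.05 before adjustment only (limma, adjusted p = 0.724). Both comparisons use the same antagomir-21 arrays with miR-21 exosomes, so they are not separate findings. The first was no longer under 0.05 before adjustment without replicate 1 of scramble with miR-21 exosomes (−2.73) or without replicate 1 (−4.70) or 2 (−3.05) of antagomir-21 with miR-21 exosomes, nor with a variance trend or with the compared arrays alone. The second was not without replicate 1 (−4.01) or 2 (−4.62) of antagomir-21 with GFP exosomes or without replicate 2 of antagomir-21 with miR-21 exosomes (−3.49). The remaining large differences of *Hspa1a* were not under 0.05 even before adjustment: 2.68 ± 1.65 for antagomir-21 against scramble given GFP exosomes, 2.24 ± 1.65 for miR-21 against GFP exosomes after scramble, 1.53 ± 1.65 for the same with lipofectamine and 1.70 ± 1.65 for scramble against lipofectamine with miR-21 exosomes. With single arrays left out, the value after scramble ranged from 1.10 to 3.38. *Hspa1a* differed on average (log2 difference ± SE) by −0.18 ± 0.95 for miR-21 against GFP exosomes, −0.60 ± 1.17 for antagomir-21 against scramble and 1.34 ± 1.17 for scramble against lipofectamine. With single arrays left out, the second ranged from −1.17 to −0.03 and the third from 0.14 to 2.55. The probe set of *Hspa1a* was dim, brighter than that of 10.3% of genes, and 19.8% of genes had a larger SD between arrays of a group than its 1.91. The mean signal of sensory neuron markers (3 of 4 measured, none above the median gene, none at 0, array means from 3.49 to 8.14) was lowest after antagomir-21 with miR-21 exosomes, at 5.19, and highest after scramble with miR-21 exosomes, at 7.98. That of B cell markers (3 of 4 measured, none at 0, array means from 8.43 to 11.07) was highest after antagomir-21 with GFP exosomes, at 10.97. Macrophage markers were also highest in that group, at 11.97. T cell, mast cell, dendritic cell and neutrophil markers were lowest in it, at 7.01, 7.54, 6.80 and 7.61. Mesothelial markers were highest after antagomir-21 with miR-21 exosomes, at 7.36. The part of any of these markers in the *Hspa1a* values was not tested.

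*Hspa1b* encodes an Hsp70 protein nearly identical to that of *Hspa1a*, from a neighbouring copy of the gene. After antagomir-21, *Hspa1b* was at 9.63 and 9.83 with miR-21 exosomes and at 8.29 and 8.78 with GFP exosomes. After scramble, *Hspa1b* was at 8.88 and 9.08 with miR-21 exosomes and at 9.73 and 8.62 with GFP exosomes. With lipofectamine, *Hspa1b* was at 6.93 and 10.02 with miR-21 exosomes and at 10.15 and 8.20 with GFP exosomes. After antagomir-21 the order was thus opposite to that of *Hspa1a*, with both arrays given miR-21 exosomes above both given GFP exosomes, by 1.2 ± 1.15. *Hspa1b* differed on average (log2 difference ± SE) by 0.10 ± 0.66 for miR-21 against GFP exosomes, 0.06 ± 0.81 for antagomir-21 against scramble and 0.25 ± 0.81 for scramble against lipofectamine. Over the 12 arrays the log2 signals of *Hspa1a* and *Hspa1b* correlated at r = −0.53, and whether the probes of genes so alike cross-hybridise was not tested, which leaves both uncertain. *Hspa1b* has 3 probe sets, and the other 2 did not follow the one used (r of 0.07 and −0.09), so its values depend on the probe set chosen. Averaging the 3 turned the difference after antagomir-21 to −0.49.

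*Dnajb1* encodes the J-domain protein that feeds clients to the inducible Hsp70. After antagomir-21, *Dnajb1* read 9.51 and 6.12 with miR-21 exosomes and 9.95 and 10.50 with GFP exosomes. After scramble, *Dnajb1* read 10.02 and 10.43 with miR-21 exosomes and 9.89 and 9.59 with GFP exosomes. With lipofectamine, *Dnajb1* read 10.02 and 9.82 with miR-21 exosomes and 9.96 and 8.88 with GFP exosomes. A total of 11 of the 12 arrays lay between 8.88 and 10.50, and the array at 6.12 alone sets the pattern. *Dnajb1* was lower after antagomir-21 than after scramble with miR-21 exosomes, at −2.40 ± 1.11 (limma, adjusted p = 0.947), and lower with miR-21 than with GFP exosomes after antagomir-21, at −2.41 ± 1.11 (adjusted p = 0.906), both just over 0.05 before adjustment. Without that array, replicate 2 of antagomir-21 with miR-21 exosomes, the differences were −0.71 and −0.71. *Dnajb1* differed on average (log2 difference ± SE) by −0.47 ± 0.64 for miR-21 against GFP exosomes, −0.96 ± 0.79 for antagomir-21 against scramble and 0.31 ± 0.79 for scramble against lipofectamine. The same array held the second lowest *Hspa1a* signal, and over all arrays the log2 signals of *Dnajb1* and *Hspa1a* correlated at r = 0.61, or 0.66 without it. Without the 2 arrays farthest from the median of *Hspa1a*, it was 0.47. As a description over 12 arrays that share these groups, 0.61 was the highest r among the 15 pairs of inducible genes. That rank depends on single arrays, since *Hspa1a* and *Bag3* went from r = 0.30 to 0.75 without the lowest *Bag3* array. The other *Dnajb1* probe set followed the one used at r = 0.15.

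*Bag3* encodes a nucleotide exchange factor that also passes Hsp70 clients to autophagy. In antagomir-21 PMs, *Bag3* was 7.86 and 7.62 with miR-21 exosomes and 5.64 and 8.03 with GFP exosomes. In scramble PMs, *Bag3* was 9.79 and 8.87 with miR-21 exosomes and 6.63 and 8.06 with GFP exosomes. In lipofectamine PMs, *Bag3* was 9.50 and 7.79 with miR-21 exosomes and 8.05 and 7.76 with GFP exosomes. The group mean was higher with miR-21 than with GFP exosomes in each of the 3 transfections, and the arrays did not overlap after scramble only. *Bag3* differed on average (log2 difference ± SE) by 1.21 ± 0.62 for miR-21 against GFP exosomes, −1.05 ± 0.76 for antagomir-21 against scramble and 0.06 ± 0.76 for scramble against lipofectamine. The first of these had a 95% interval of −0.17 to 2.59 (adjusted p = 0.949) and was the member difference nearest to the threshold among the averaged comparisons. After scramble alone, miR-21 against GFP exosomes gave 1.99 ± 1.07, and antagomir-21 against scramble with miR-21 exosomes gave −1.59 ± 1.07. The largest difference was between scramble with miR-21 exosomes and antagomir-21 with GFP exosomes, at 2.50 ± 1.07 (limma, adjusted p = 0.670), under 0.05 before adjustment. That comparison rests in part on replicate 1 of antagomir-21 with GFP exosomes, at 5.64, the lowest *Bag3* array, and without it the difference was 1.31. Before adjustment it was not under 0.05 without that array, without either array of scramble with miR-21 exosomes (2.04 and 2.95) or without either array of lipofectamine with GFP exosomes, where the value stayed at 2.50 and only the pooled spread differed, nor in 5 of the 7 other settings tried.

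**Figure D1:**
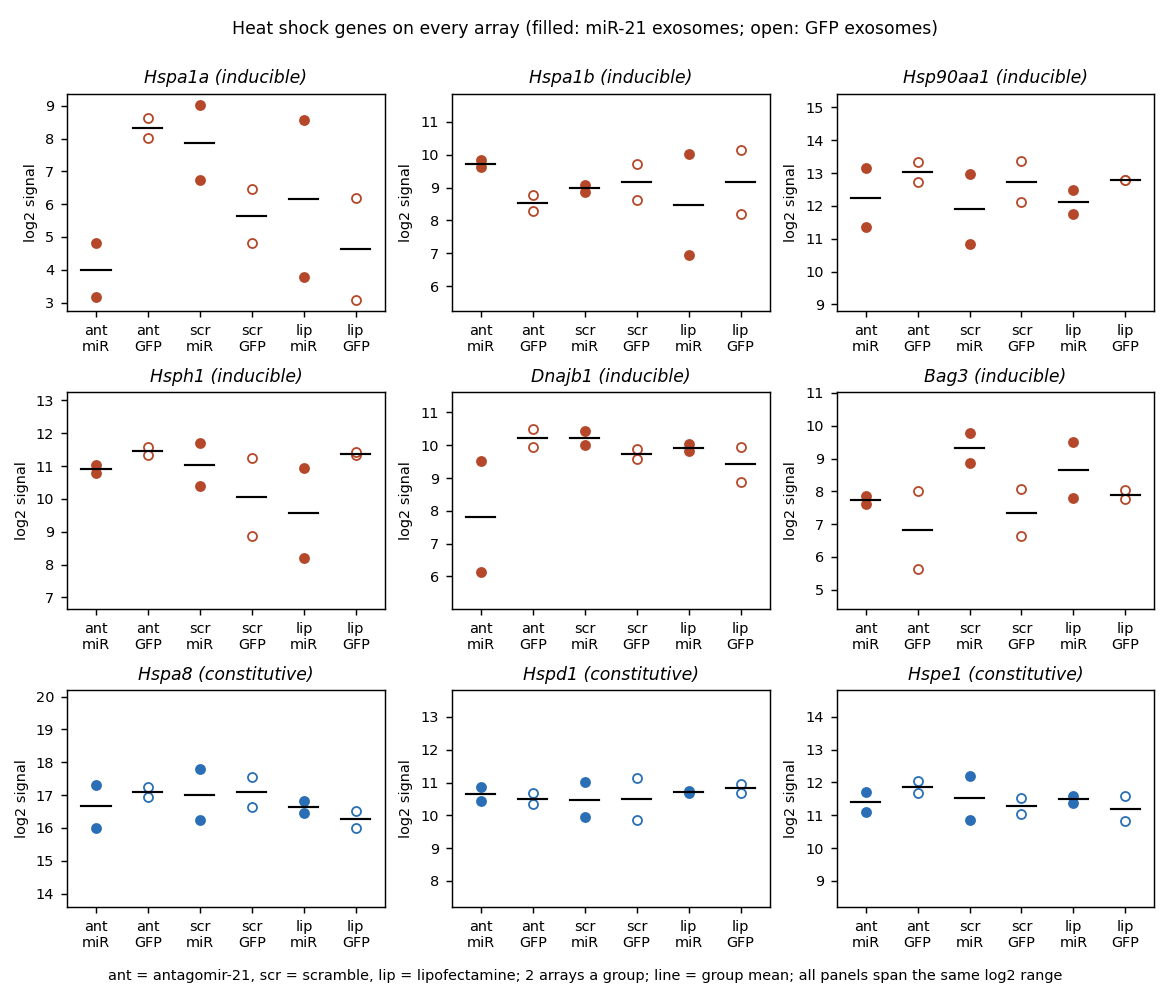
Log2 signal (y axis) of the 9 measured heat shock genes on each of 12 arrays, by group (x axis: antagomir-21, scramble and lipofectamine, each with miR-21 exosomes, filled, and GFP exosomes, open), with lines at the group means of 2 arrays. *Hspa1a* ranges from 3.08 to 9.01, whereas *Hspd1* stays between 9.87 and 11.15, and 1 *Dnajb1* array stands alone at 6.12.

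*Hsph1* encodes Hsp110, a large relative of Hsp70 that exchanges its nucleotide. After antagomir-21, *Hsph1* stood at 10.79 and 11.04 with miR-21 exosomes and 11.57 and 11.33 with GFP exosomes. After scramble, *Hsph1* stood at 10.39 and 11.70 with miR-21 exosomes and 8.88 and 11.26 with GFP exosomes. With lipofectamine, *Hsph1* stood at 8.19 and 10.96 with miR-21 exosomes and 11.33 and 11.43 with GFP exosomes. Of the 12 arrays, 10 lay between 10.39 and 11.70, and the arrays at 8.19 and 8.88, of different groups, set its differences. None of its differences was under 0.05 before adjustment. They were −1.81 ± 1.15 for miR-21 against GFP exosomes with lipofectamine, 1.47 ± 1.15 for scramble against lipofectamine with miR-21 exosomes, 1.38 ± 1.15 for antagomir-21 against scramble given GFP exosomes and −1.31 ± 1.15 for scramble against lipofectamine with GFP exosomes. *Hsph1* differed on average (log2 difference ± SE) by −0.46 ± 0.67 for miR-21 against GFP exosomes, 0.62 ± 0.81 for antagomir-21 against scramble and 0.08 ± 0.81 for scramble against lipofectamine. The other probe set of *Hsph1* ran, if anything, the other way (r = −0.32).

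*Hsp90aa1* encodes the inducible cytosolic Hsp90, which holds kinases and steroid receptors in an activatable state. After antagomir-21, *Hsp90aa1* reached 13.15 and 11.35 with miR-21 exosomes and 13.33 and 12.74 with GFP exosomes. After scramble, *Hsp90aa1* reached 10.84 and 12.98 with miR-21 exosomes and 12.11 and 13.37 with GFP exosomes. With lipofectamine, *Hsp90aa1* reached 11.77 and 12.48 with miR-21 exosomes and 12.78 and 12.79 with GFP exosomes. Its group mean was lower with miR-21 than with GFP exosomes in each of the 3 transfections, and the arrays did not overlap with lipofectamine only. *Hsp90aa1* differed on average (log2 difference ± SE) by −0.76 ± 0.60 for miR-21 against GFP exosomes, 0.32 ± 0.74 for antagomir-21 against scramble and −0.13 ± 0.74 for scramble against lipofectamine. The first had a 95% interval of −2.10 to 0.58 and ranged from −1.11 to −0.40 with single arrays left out. Scramble PMs given miR-21 exosomes against antagomir-21 PMs given GFP exosomes gave −1.12 ± 1.04, or −2.20 to −0.05 with single arrays left out. None of the other 4 probe sets of *Hsp90aa1* followed the one used closely (r from −0.21 to 0.31). With lipofectamine, the next brightest ran the other way without overlap. They read 10.14 and 10.31, and 10.37 and 10.26, with miR-21 exosomes. With GFP exosomes they read 10.09 and 9.99, and 10.18 and 9.95. A dimmer one ran as the one used did (5.04 and 3.46 against 5.52 and 7.97), and the dimmest overlapped.

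*Hspa8* encodes Hsc70, the constitutive Hsp70, and its probe set was brighter than that of 99.9% of genes. After antagomir-21, *Hspa8* had 17.32 and 16.01 with miR-21 exosomes and 16.95 and 17.24 with GFP exosomes. After scramble, *Hspa8* had 16.24 and 17.79 with miR-21 exosomes and 17.56 and 16.63 with GFP exosomes. With lipofectamine, *Hspa8* had 16.81 and 16.46 with miR-21 exosomes and 15.99 and 16.52 with GFP exosomes. All 6 groups spanned less than 2 log2 units together. *Hspa8* differed on average (log2 difference ± SE) by −0.05 ± 0.53 for miR-21 against GFP exosomes, −0.18 ± 0.65 for antagomir-21 against scramble and 0.61 ± 0.65 for scramble against lipofectamine. The 4 arrays with the smallest spread over all genes (SD 2.04, 2.13, 2.16 and 2.19) had the 4 lowest *Hspa8* signals (16.24, 15.99, 16.01 and 16.46). The order did not hold beyond these. The highest *Hspa8* signals, 17.56 and 17.79, were on arrays with SDs of 2.24 and 2.29, and the largest SD, 2.48, went with 17.24. The part of that spread in the *Hspa8* values was not tested. Of its other 3 probe sets, 2 followed the one used (r of 0.68 and 0.50) and the dimmest did not (r = −0.08).

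*Hspd1* and *Hspe1* encode mitochondrial Hsp60 and its lid, Hsp10, which fold proteins imported into mitochondria as 1 complex. After antagomir-21, *Hspd1* gave 10.42 and 10.87 with miR-21 exosomes and 10.33 and 10.67 with GFP exosomes. After scramble, *Hspd1* gave 11.01 and 9.96 with miR-21 exosomes and 9.87 and 11.15 with GFP exosomes. With lipofectamine, *Hspd1* gave 10.68 and 10.74 with miR-21 exosomes and 10.97 and 10.69 with GFP exosomes. The lowest arrays, at 9.87 and 9.96, were both of scramble PMs, each beside a replicate above 11. *Hspd1* differed on average (log2 difference ± SE) by −0.00 ± 0.50 for miR-21 against GFP exosomes, 0.08 ± 0.61 for antagomir-21 against scramble and −0.27 ± 0.61 for scramble against lipofectamine. For *Hspe1*, antagomir-21 PMs had 11.72 and 11.11 with miR-21 exosomes and 11.67 and 12.04 with GFP exosomes. In scramble PMs, *Hspe1* had 10.87 and 12.20 with miR-21 exosomes and 11.51 and 11.03 with GFP exosomes. In lipofectamine PMs, *Hspe1* had 11.59 and 11.37 with miR-21 exosomes and 10.81 and 11.57 with GFP exosomes. Every group overlapped the next in the order of means for both genes. *Hspe1* differed on average (log2 difference ± SE) by 0.04 ± 0.50 for miR-21 against GFP exosomes, 0.23 ± 0.61 for antagomir-21 against scramble and 0.06 ± 0.61 for scramble against lipofectamine. The intervals of miR-21 against GFP exosomes, −1.10 to 1.10 for *Hspd1* and −1.07 to 1.14 for *Hspe1*, leave room for a 2-fold change either way. *Hspe1* has 2 probe sets, and the dimmer one, from 5.75 to 9.85, followed the one used at r = 0.35.

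On the probe sets used, the constitutive genes had smaller SDs between arrays of a group than the inducible genes, as a description. The SD between arrays of a group was 0.51 for both *Hspd1* and *Hspe1* and 0.68 for *Hspa8*, against 0.93 to 1.12 for 5 inducible genes and 1.91 for *Hspa1a*. Of all genes, 63.8% to 72.9% had a larger SD than each of those 5, so these were not unusually variable. For the constitutive genes it was 85.8% to 94.0%. The order of the classes depends on the probe set. Over all 12 arrays, probe sets not used had SDs of 0.24 to 2.12 for *Hsp90aa1*, 0.55 to 1.60 for *Hspa8* and 1.58 for *Hspe1*. The probe sets used for these genes had 0.80, 0.59 and 0.44. Ordered by group mean, neighbouring groups overlapped in every gene except for a single step in *Hspa1b*. How often neighbouring groups overlap over all genes was not counted, so this is not shown to be particular to these genes. Over the 12 arrays, which share these groups, *Hspa8* and *Hspe1* had log2 signals that ran together (r = 0.84) and *Hspa8* and *Hspd1* ran opposite (r = −0.84). After quantile normalization, an alternative chosen after seeing the data, these became 0.58 and −0.63. On the probe sets used, the members of the Hsp60 complex, *Hspd1* and *Hspe1*, were themselves opposed (r = −0.71, or −0.53 after quantile normalization). *Hspe1* enters these correlations by the brighter of its 2 probe sets and *Hspa8* by the brightest of its 4. Their other probe sets were not correlated with the other genes, so these values may depend on the probe set. Without the 2 arrays farthest from the median of *Hspa8*, its r was −0.68 with *Hspd1* and 0.86 with *Hspe1*. The median r over 15 pairs of inducible genes was −0.07, with 7 pairs above 0.

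**Figure D2:**
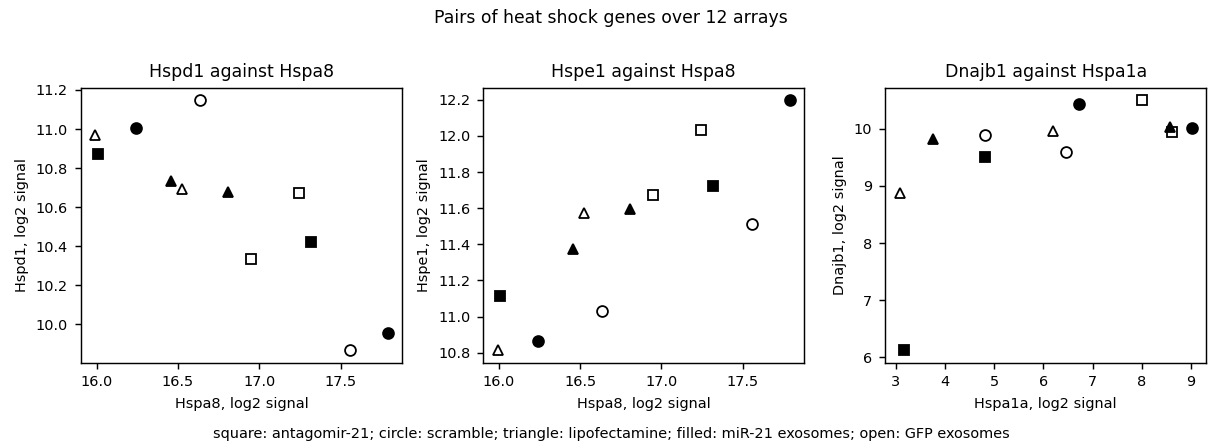
Log2 signals of 3 pairs of genes on 12 arrays (squares antagomir-21, circles scramble, triangles lipofectamine, filled with miR-21 exosomes and open with GFP exosomes). On the probe sets used, *Hspd1* runs against *Hspa8* (r = −0.84) and *Hspe1* runs with it (r = 0.84). The *Dnajb1* panel holds 1 array far below the others.

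The inducible genes were compared with the constitutive genes in each comparison by the median of their log2 differences, which is a description with no test. In PMs with miR-21 exosomes, antagomir-21 against scramble gave a median of −0.86 over the 6 inducible genes and −0.12 over the 3 constitutive genes, a difference of −0.75, which ranged from −1.19 to −0.18 with single arrays left out. For miR-21 against GFP exosomes after scramble, the medians were 0.73 for inducible and −0.03 for constitutive genes, a difference of 0.76, which ranged from 0.11 to 1.23. These are the 2 widest gaps of the 11 comparisons, and both involve the scramble arrays with miR-21 exosomes. For comparison, the inducible minus constitutive difference varied between arrays of a group with an SD of 0.63. The averaged comparisons gave smaller gaps: −0.32 for miR-21 against GFP exosomes (2 of 6 inducible and 1 of 3 constitutive genes higher), −0.35 for antagomir-21 against scramble (3 of 6 and 2 of 3 higher) and 0.10 for scramble against lipofectamine (5 of 6 and 2 of 3 higher). With single arrays left out, these ranged from −0.59 to 0.11, from −0.65 to −0.02 and from −0.24 to 0.49, so the first and the third have no settled sign. The other gaps were 0.39 for antagomir-21 against scramble given GFP exosomes, −0.37 for miR-21 against GFP exosomes with lipofectamine, −0.23 for the same after antagomir-21, 0.55 for scramble against lipofectamine with miR-21 exosomes, −0.10 for the same with GFP exosomes, and −0.12 for scramble PMs given miR-21 exosomes against antagomir-21 PMs given GFP exosomes. In no comparison did all 6 inducible genes lie on the same side of 0.

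**Figure D3:**
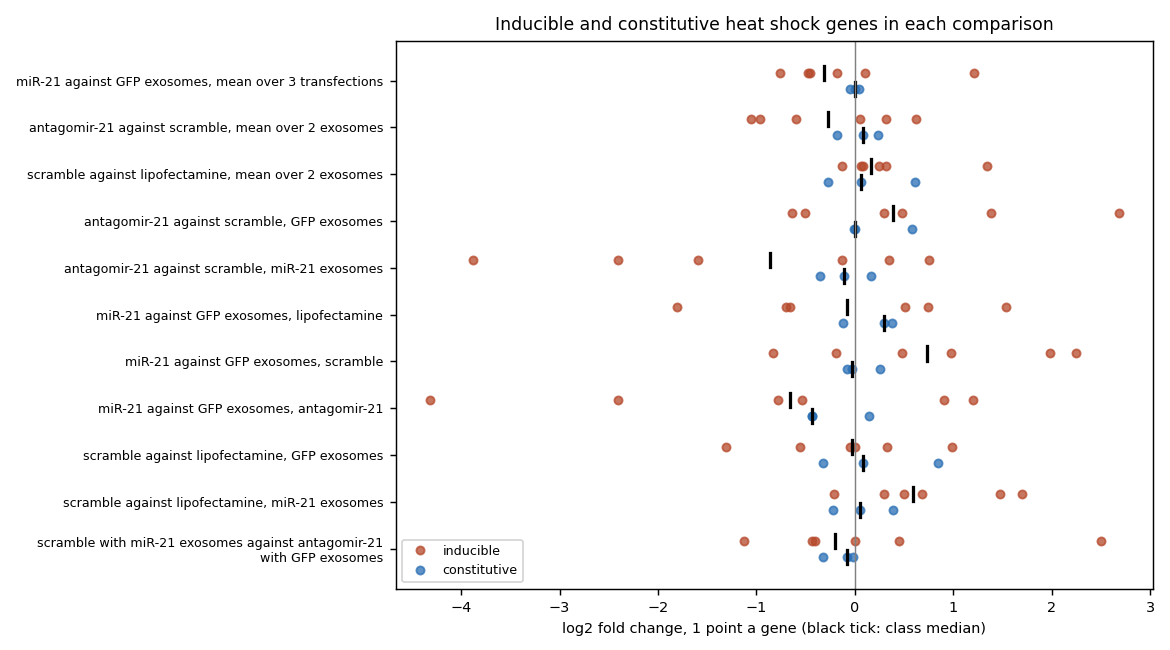
Log2 fold change (x axis, 1 point per gene) of the 6 inducible and 3 constitutive heat shock genes in 11 comparisons (y axis), with a black tick at the median of each class. Inducible genes scatter on both sides of 0 in each comparison, from −4.31 to 2.68, while constitutive genes stay between −0.44 and 0.84.

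Set against all genes, few members were called. At an adjusted p under 0.05, limma called 0 of the 9 members and 0 of 18193 genes (0%) in each of the 11 comparisons and in both tests of a difference between effects. Before adjustment, at p under 0.05, 0 of 9 members were called for miR-21 against GFP exosomes over the 3 transfections, where 5.45% of all genes were, for antagomir-21 against scramble over both exosomes (5.16% of all genes) and for scramble against lipofectamine over both exosomes (4.14%). In PMs with miR-21 exosomes, antagomir-21 against scramble called 1 of 9 members, *Hspa1a*, against 5.3% of all genes. After antagomir-21, miR-21 against GFP exosomes called *Hspa1a* alone, against 5.68%. Scramble PMs given miR-21 exosomes against antagomir-21 PMs given GFP exosomes called *Bag3* alone, against 7.17%. No member was called for antagomir-21 against scramble given GFP exosomes (5.38% of all genes), for miR-21 against GFP exosomes with lipofectamine (3.84%) or after scramble (5.7%), or for scramble against lipofectamine with GFP exosomes (2.54%) or with miR-21 exosomes (5.68%). The test of whether the antagomir-21 effect differed between miR-21 and GFP exosomes called *Hspa1a* alone, against 5.36% of all genes, and the test of whether the exosome effect differed between scramble and lipofectamine called 0 of 9 (3.8%).

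**Figure D4:**
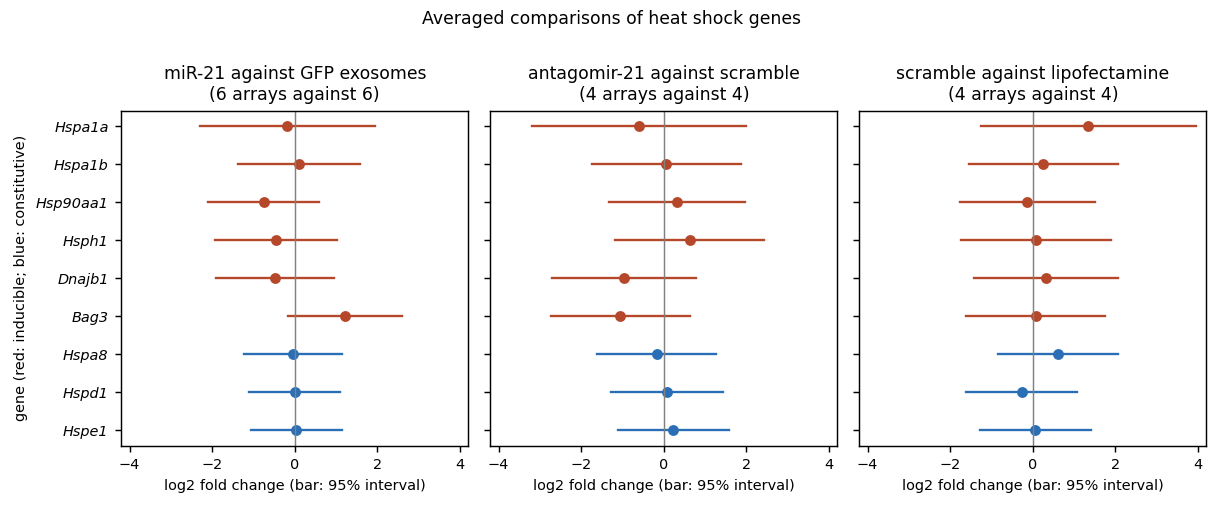
Log2 fold change (x axis, point) with its 95% interval (bar) of each of the 9 heat shock genes (y axis) in 3 averaged comparisons. Every interval includes 0, and *Bag3* for miR-21 against GFP exosomes, at 1.21, comes nearest to leaving it.

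The wider chaperone network was covered by a list of 50 other genes, of which 48 were measured (small heat shock proteins, organelle Hsp70 and Hsp90 proteins, J-domain proteins, Hsp90 cochaperones, the chaperonin TRiC and prefoldin). After antagomir-21, 40 of the 48 genes were lower and 8 higher with miR-21 than with GFP exosomes, with a median log2 difference of −0.53, where the median over all genes was −0.08. That count rests on replicate 2 of antagomir-21 with miR-21 exosomes, without which 26 were higher and 22 lower (median 0.06). With all arrays, 47.3% of all genes were higher. With dim genes left out, 32 of 36 were lower (median −0.57, all genes kept −0.26). Quantile normalization gave 37 of 48 lower (median −0.41, all genes −0.17). The mean of all probe sets gave 32 of 48 lower (median −0.35, all genes 0.07). In PMs with GFP exosomes, 37 were higher and 11 lower after antagomir-21 than after scramble, with a median of 0.48 (all genes 0.03), and at least 32 of the 48 were higher whichever array was left out. Of all genes, 51.2% were higher in that comparison. With dim genes left out, 31 of 36 were higher and the median over all genes was 0.15. Cell type markers also differed between these groups: their mean signal was 11.97 after antagomir-21 and 11.14 after scramble for macrophages, 6.80 after antagomir-21 and 8.18 after scramble for dendritic cells, and 7.61 after antagomir-21 and 9.01 after scramble for neutrophils, and their part in the chaperone counts was not tested. Both comparisons use the antagomir-21 arrays with GFP exosomes. Averaged over the transfections, 15 genes were higher and 33 lower with miR-21 than with GFP exosomes (median −0.18, all genes −0.02), or 26 and 22 (median 0.04) without replicate 1 of scramble with miR-21 exosomes. That median was close to that of all genes with quantile normalization (−0.10, all genes −0.06) and with dim genes left out (−0.25, all genes −0.19). Averaged over exosomes, 31 were higher and 17 lower after antagomir-21 than after scramble (median 0.30, all genes near 0), or 23 and 25 (median −0.05) without that same array. Scramble against lipofectamine gave 24 higher and 24 lower (median 0.01). None passed an adjusted p under 0.05. Before adjustment, 0 of the 48 were under 0.05 for miR-21 against GFP exosomes averaged, where 5.45% of all genes were. For antagomir-21 against scramble averaged it was 1 of 48 (5.16% of all genes), and for scramble against lipofectamine averaged 1 of 48 (4.14%). The gene was *Hspbp1* both times, which encodes an exchange factor of Hsp70. It was lower after antagomir-21 than after scramble, with a log2 difference of −2.58 ± 1.03 (limma, adjusted p = 0.907) and higher after scramble than with lipofectamine by 3.14 ± 1.03 (adjusted p = 0.9999). These comparisons share the scramble arrays, and *Hspbp1* was not followed with arrays left out or by other probe sets.

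The genes whose signals ran most like each class were listed as a description over the 12 arrays, among genes above the median signal. The mean of the inducible genes, each centred on its own mean, ran most like *Lsm14a* (r = 0.88), *Lsm1* (r = 0.85), *Mynn* (r = 0.84), *Tmem158* (r = 0.81), *Cyb5r3* (r = 0.80) and *Usf2* (r = 0.78). The mean of the constitutive genes ran most like *Tmem234* (r = 0.95), *Cstb* (r = 0.94), *Pltp* (r = 0.94), *Ifi204* (r = 0.93), *Gnas* (r = 0.93) and *Atp6ap2* (r = 0.93). Neither mean stands for each gene of its class. The genes were centred but not scaled, so *Hspa1a* (SD over 12 arrays 2.16) weighs most among the inducible genes. The constitutive mean joins *Hspd1* with *Hspa8* and *Hspe1*, to which it ran opposite on the probe sets used (r = −0.84 and −0.71). None of the 12 genes listed is in the chaperone lists. Of the 6 constitutive neighbours, 4 had mean signals of 13.41 or more, in the range of the brightest genes of the arrays.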

How the data were processed

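For each of 12 Affymetrix mouse arrays the authors deposited 1 log2 signal per probe set. The study's methods describe RMA background correction and quantile normalization, but the deposited arrays share a trimmed mean (496 to 499 on the linear scale) and not a distribution, so how they were scaled stays unstated. The kit named for RNA amplification differs between methods (WT Pico) and labels (NuGEN). The annotation gave a single symbol for 34945 of 45037 probe sets, several for 932 and none for 9160. Probe sets of these last kinds were left out, and the brightest probe set on average was kept for each of 18193 genes. Differences between the labelled groups were fitted by limma 3.58.1 (R 4.3.3) on 6 group means, with Benjamini-Hochberg adjustment over all genes, and the procedure was tested on simulated data. Members, classes and gene lists were chosen with earlier results of these data known. All members are named, with log2 differences for the averaged comparisons and for pairs of groups where p was under 0.05 or the difference was 1 or more, and other chaperones at p under 0.05 in an averaged comparison. Sequences are from RefSeq, GRCm38.p6, while the arrays carry no coordinates. How far signals stand above background is unknown, and the number of arrays limits the precision. Alternatives tried were quantile normalization, median centring, the mean of all probe sets, a variance trend, leaving out dim genes, a replicate block, the compared arrays alone, each array left out and other class definitions.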

Additional observations from a re-analysis of the deposited data

Results flagged for a closer look

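The difference between antagomir-21 and scramble PMs ran in opposite directions with the 2 exosomes for *Hspa1a*. It was −3.88 (log2) in PMs with miR-21 exosomes and 2.68 in PMs with GFP exosomes, and both arrays of each antagomir-21 group lay on that side of both scramble arrays. The difference between these effects was −6.55 ± 2.33 (SE), under 0.05 before adjustment but not after it (limma, adjusted p = 0.871). It ranged from −7.70 to −5.41 when single arrays were left out. It was no longer under 0.05 before adjustment without replicate 1 of scramble with GFP exosomes (−5.73), replicate 1 of scramble with miR-21 exosomes (−5.41) or replicate 2 of antagomir-21 with miR-21 exosomes (−5.73).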

How the results depend on the processing

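No member passed an adjusted p under 0.05 under any alternative (lowest adjusted p = 0.444). Over 45 gene differences and 817 alternatives, 79 turned the sign of a difference, and 23 of the 45 kept theirs throughout. Median centring moved the median of all genes by over 0.1, to −0.23 for miR-21 against GFP exosomes (−0.02 as reported), 0.15 for antagomir-21 against scramble (near 0) and −0.13 for scramble against lipofectamine (near 0). Causes of the changes below were not tested, except that leaving out an array leaves fewer arrays. Leaving out dim genes drops *Hspa1a*, and the compared arrays alone give no averaged difference. Signal over background is unknown, so dim genes such as *Hspa1a* are the least certain.

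Between classes, counting *Hsp90aa1* and *Hsph1* as constitutive gave −1.01 for antagomir-21 against scramble averaged, −0.31 for the same with GFP exosomes, −1.88 with miR-21 exosomes, 0.75 for miR-21 against GFP exosomes with lipofectamine and 0.54 for scramble PMs given miR-21 exosomes against antagomir-21 PMs given GFP exosomes. The mean of all probe sets gave −1.43 for antagomir-21 against scramble with miR-21 exosomes, and leaving out *Hspd1* and *Hspe1* gave −0.86 for scramble against lipofectamine with GFP exosomes. Leaving out single arrays gave −0.62 to 0.13 in antagomir-21 PMs for miR-21 against GFP exosomes, −0.41 to 0.55 for antagomir-21 against scramble (GFP exosomes), −0.98 to 0.57 and 0.11 to 1.23 for miR-21 against GFP exosomes (lipofectamine, then scramble), 1.002 down to −0.13 and 0.59 down to −1.10 for scramble against lipofectamine (miR-21, then GFP exosomes), and −0.19 to 0.92 for scramble PMs given miR-21 exosomes against antagomir-21 PMs given GFP exosomes.

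For miR-21 against GFP exosomes averaged, quantile normalization gave 0.073 for *Hspa1a*, 0.0012 for *Hspa8* and 0.24 for *Hspd1*, median centring gave −0.11 for *Hspa1b* and −0.17 for *Hspe1*, and the mean of all probe sets gave 0.038 for *Hsph1*. For antagomir-21 against scramble averaged, quantile normalization gave −0.013 for *Hspd1* and −0.028 for *Hspe1*, and the mean of all probe sets gave −0.67 for *Hspa1b* and −0.064 for *Hsp90aa1*. For scramble against lipofectamine averaged, quantile normalization gave −0.064 for *Hspa1b* and −0.026 for *Hsph1*, median centring gave −0.040 for *Hsph1*, −0.058 for *Bag3* and −0.058 for *Hspe1*, and the mean of all probe sets gave 0.42 for *Hsp90aa1*, −0.22 for *Hsph1* and −0.29 for *Hspe1*. The mean of all probe sets also gave −0.49 for *Hspa1b* between miR-21 and GFP exosomes after antagomir-21, and 0.12 for *Hsp90aa1* between scramble PMs given miR-21 exosomes and antagomir-21 PMs given GFP exosomes.

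Leaving out single arrays gave, for miR-21 against GFP exosomes averaged, −0.98 to 0.62 for *Hspa1a*, −0.41 to 0.62 for *Hspa1b*, −0.92 to 0.0055 for *Hsph1*, −1.04 to 0.091 for *Dnajb1*, −0.30 to 0.21 for *Hspa8*, −0.21 to 0.21 for *Hspd1* and −0.18 to 0.26 for *Hspe1*. For antagomir-21 against scramble averaged, it gave −0.22 to 0.33 for *Hspa1b*, −0.22 to 0.85 for *Hsp90aa1*, −0.56 to 0.21 for *Hspa8*, −0.24 to 0.40 for *Hspd1* and −0.10 to 0.57 for *Hspe1*. For scramble against lipofectamine averaged, it gave −0.52 to 1.02 for *Hspa1b*, −0.67 to 0.40 for *Hsp90aa1*, −0.61 to 0.77 for *Hsph1*, −0.36 to 0.49 for *Bag3*, −0.59 to 0.046 for *Hspd1* and −0.27 to 0.40 for *Hspe1*. *Hspa1a* ranged from −0.87 to 3.94 for miR-21 against GFP exosomes with lipofectamine and from −0.71 to 4.11 for scramble against lipofectamine with miR-21 exosomes.

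Arrays with the same replicate number did not deviate together (15 correlations, −0.19 to 0.17). This cannot show whether the numbers pair arrays, since even arrays of the same group were no more alike (mean r 0.59) than arrays of different groups (0.60). A block on the replicate number cannot move a difference in this balanced design (*Hspa1a* is −3.88 for antagomir-21 against scramble with miR-21 exosomes in both fits), and only its error can differ. With it, *Bag3* between scramble PMs given miR-21 exosomes and antagomir-21 PMs given GFP exosomes was no longer under 0.05 before adjustment, and 988, 935 and 743 genes were under 0.05 before adjustment in the averaged comparisons, against 991, 939 and 754 without it.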
